A study of Mus musculus with 62 samples.

Results

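Spi1 and its paralogues Spib and Spic encode the 3 transcription factors of the Pu.1 subfamily of ETS proteins, and Pu.1 is the product of Spi1. Their loci were followed in cleavage under targets and tagmentation (CUT&Tag) data from lineage-negative, c-Kit-positive haematopoietic stem and progenitor cells (HSPCs) of mouse bone marrow, an assay in which an antibody directs a transposase to the chromatin it binds. A member site was any region in the deposited tables of differences between genotypes that touched the body of one of these genes or the 20 kb on either side (mm10, GENCODE M21 annotation). This gave 235 of the 1743368 sites in the 14 tables used, of which 111 lay in the window of Spi1, 86 in that of Spib and 38 in that of Spic. The choice did not use the direction or the size of a difference, but a site was in a table only because the authors' own test had called it different between the genotypes. A stretch without a site is therefore one with no listed difference, not one without signal.

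Wild-type mice (WT, Daxx +/+ Cre +/-), Daxx knockout mice (Daxx-KO, Daxx F/F Cre +/-) and double-knockout mice (DKO, Daxx F/F and Pu.1 F/F, with Cre +/-) of the C57BL/6 strain were compared at 3, 8 and 24 weeks post injection (w.p.i.), and all 3 groups carried Cre. The labels do not name the Cre line; the study describes deletion with Mx1Cre, which follows an interferon-responsive promoter and is switched on by injections of pI:pC, and with a tamoxifen-inducible Cre, so the deletion need not be limited to blood cells. The floxed Daxx and Pu.1 alleles came from different C57BL/6 sublines. The labels give no age, and the study injected young adult mice of both sexes. H3.3, Pu.1, H3K27ac and H3K9me3 were measured at 3 w.p.i. and, with H3K27me3, at 24 w.p.i., with 2 Daxx-KO against 2 WT libraries each. H3K9me3 and H3K27me3 were measured at 8 w.p.i. with 3 libraries a group, and in the tables used DKO mice entered only there. By the library names, the H3.3 and Pu.1 libraries of 3 w.p.i. share both Daxx-KO mice and 1 WT mouse. The other WT library of each, replicate 1, carries no mouse number, so its mouse is not known. The H3K27ac and H3K9me3 libraries of that time share a set of 4 mice, which includes that 1 numbered WT mouse. All 5 antibodies of 24 w.p.i. come from the same 2 Daxx-KO and 2 WT mice, and both antibodies of 8 w.p.i. share mice, so values of different antibodies are set side by side and are not independent of each other.

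Pu.1 is known as a dose-dependent regulator of myeloid and B cell fate that sustains its own gene by binding an upstream regulatory element (URE), and loss of the URE lowers Spi1 expression in stem cells. Spib acts in B cells and plasmacytoid dendritic cells and binds much the same GGAA-centred sequences, while Spic is best known in iron-recycling macrophages of the red pulp. H3.3 is the replication-independent histone variant that Daxx places in heterochromatin together with Atrx, H3K9me3 marks that heterochromatin, H3K27ac marks active promoters and enhancers, and H3K27me3 is laid down by the Polycomb machinery at silent or poised genes.

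Site values are normalized counts, the reads of a site divided by a constant of its library. Sites with a higher mean in the first-named genotype are called gained and the others lost. With 2 against 2 libraries the exact two-sided permutation test of a site cannot go below p = 0.333, and with 3 against 3 not below 0.1, so no site is called on its own by that test. Leaving out 1 library moved the fold of 36 of the 68 sites described in full by over 1.5 times, and the log2 ratio (means plus 1) without that library is then given beside the values. Values are given by library, with Daxx-KO (or DKO) first. The mean coverage was 1.21 to 33.78 reads per window in the libraries of 3 w.p.i., 0.2 to 3.29 in those of 8 w.p.i. and 3.97 to 10.3 in those of 24 w.p.i. The WT libraries of H3.3 and Pu.1 at 3 w.p.i. stood apart, with 22.88 and 33.78 reads per window in replicate 1 but 3.06 and 2.75 in replicate 2. A difference in a mark can stem from more marked cells or from more mark per cell, which cannot be told apart in bulk HSPCs. As a check of the labels, 3 listed sites overlapped the stretch of the floxed exons 2 to 7 of Daxx in part, and all 3 were lower in Daxx-KO. They were H3K27ac sites of 3 and 24 w.p.i. and a Pu.1 site of 24 w.p.i. The labels of the other comparisons, with all of 8 w.p.i., were not checked in this way. No listed site lay over an exon of Spi1 in the comparisons with DKO, so those tables do not check the Pu.1 deletion.

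The stretches the results turn on are the distal part of the Spi1 URE, which lost Pu.1 at both times, and the 3 promoters, where the marks of the 3 genes differed. They are printed from mm10 along the strand of each gene, and capitals mark the Pu.1-type words GAGGAAGT and GAGGAA on either strand, the first of which contains the second. The URE stretch is chr2:91080851-91081050 on the plus strand, the Spi1 promoter chr2:91095846-91096115 on the plus strand, the Spib promoter chr7:44532052-44532321 on the minus strand and the Spic promoter chr10:88683004-88683273 on the minus strand. Each promoter stretch runs from 250 bases before the main start to 20 after it.
Spi1 URE: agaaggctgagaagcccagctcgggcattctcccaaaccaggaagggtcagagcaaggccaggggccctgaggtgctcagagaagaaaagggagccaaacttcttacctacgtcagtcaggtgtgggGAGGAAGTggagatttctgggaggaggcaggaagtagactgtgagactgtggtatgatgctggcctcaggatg
Spi1 promoter: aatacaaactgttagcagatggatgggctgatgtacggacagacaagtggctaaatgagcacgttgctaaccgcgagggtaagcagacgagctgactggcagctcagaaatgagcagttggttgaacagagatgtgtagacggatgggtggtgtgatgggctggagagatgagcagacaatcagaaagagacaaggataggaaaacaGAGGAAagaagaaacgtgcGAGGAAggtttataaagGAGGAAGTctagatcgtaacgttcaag
Spib promoter: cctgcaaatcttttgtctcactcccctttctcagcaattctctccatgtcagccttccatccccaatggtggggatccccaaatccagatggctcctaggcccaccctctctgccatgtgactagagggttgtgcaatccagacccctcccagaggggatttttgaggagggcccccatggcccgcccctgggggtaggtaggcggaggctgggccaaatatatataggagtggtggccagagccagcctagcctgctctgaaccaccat
Spic promoter: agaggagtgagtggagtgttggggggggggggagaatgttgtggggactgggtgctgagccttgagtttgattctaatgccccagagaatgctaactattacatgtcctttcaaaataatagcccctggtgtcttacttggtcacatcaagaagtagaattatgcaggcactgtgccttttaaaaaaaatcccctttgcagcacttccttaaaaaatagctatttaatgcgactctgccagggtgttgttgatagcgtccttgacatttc

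The Spi1 promoter stretch held 3 GAGGAA words, at -43, -24 and -7 from the main start, and the last of them read GAGGAAGT. The Spib and Spic stretches held neither word. No listed Pu.1 site touched the Spi1 or the Spib promoter stretch. The words at the Spi1 promoter therefore lie outside its gained Pu.1 site, which starts at 91096301. The Spic stretch met only the edge of the Pu.1 site lost there at 24 w.p.i. Among 32851 promoter stretches of the same length in the RefSeq table, 2.72% held GAGGAAGT, 25.1% held GAGGAA and 0.527% held at least 3 GAGGAA. The GAGGAAGT of the URE stretch lay at -15118. It was the only GAGGAAGT in any Pu.1 site of the 3 windows: it lay in 1 of 4 lost and 0 of 26 gained Pu.1 sites at 3 w.p.i., and in 1 of 13 lost and 0 of 16 gained ones at 24 w.p.i. Among all listed Pu.1 sites of 600 to 1000 bp, between 4.82% and 5.75% held the word. A word is a match of letters and was not tested for binding.

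The Spi1 URE was taken as chr2 91080096 to 91084096, from 16 to 12 kb upstream of the main start. Pu.1 was lower in Daxx-KO HSPCs at its distal end at both times. At 24 w.p.i. H3K27ac was higher over the URE and H3K27me3 lower. All 3 Pu.1 sites that touched the URE were lost. They lay towards its ends, and the one nearest the gene ran past its edge. No Pu.1 site was listed in the stretch between them, from 91081150 to 91083751. The site at 91080401 to 91081050, at 3 w.p.i., held Pu.1 counts of 22.8 and 28.4 in Daxx-KO against 58.5 and 73.5 in WT, 2.58-fold lower. The second one of that time, at 91083751 to 91084400, held 28.4 and 21.1 against 73.1 and 44.8, 2.38-fold lower. In neither did the groups overlap, and both differences went against the direction of most Pu.1 sites in the window. With the reads divided by each library's mean reads per window, their log2 ratios of -1.33 and -1.22 were -1.06 and -0.76.

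Neither Daxx-KO library held a Pu.1 read in the site at 91080001 to 91081150 at 24 w.p.i., which contains the GAGGAAGT, whereas the WT libraries held counts of 77.7 and 111, from 54 and 105 reads. Against a floor of 3 reads per library this was at least 36.3-fold lower in Daxx-KO. A library was at 0 in 36.1% of all listed Pu.1 sites of that time. Such floors cover counting error only, and reads without molecular identifiers are not independent molecules. A loss of Pu.1 over the distal URE was thus listed at both times, in other mice. Of all overlapping Pu.1 pairs of 3 and 24 w.p.i., 48.1% kept their direction.

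H3.3 was lost at 91082301 to 91083000, over the distal first exons of Spi1, at 3 w.p.i. The counts were 1.58 and 53.1 in Daxx-KO against 75.7 and 60.2 in WT, a mean 2.49-fold lower. The size rested on Daxx-KO replicate 1: the log2 ratio was -1.28 with both libraries, -0.35 without it and -4.74 without Daxx-KO replicate 2. With the reads divided by each library's mean reads per window in place of the constant, the groups overlapped.

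The H3K27ac site over the URE spanned 91080301 to 91085200 at 24 w.p.i. and was among the strongest in its table. Its counts were 15111.3 and 13801.0 in Daxx-KO against 8985.5 and 8601.2 in WT, 1.64-fold higher with no overlap. By the mean of its higher group it ranked 28 of 193657 sites and 14 among the gained ones, and by length it ranked 225, a count not being corrected for length. Divided by the mean reads per window, which differed between the groups (normalized means of 5.37 and 5.81 for Daxx-KO, of 8.42 and 8.15 for WT), the difference was 2.44-fold. H3K27me3 over the middle of the URE, at 91082001 to 91083550, held 72.6 and 77.3 in Daxx-KO against 158 and 181 in WT at that time, 2.26-fold lower. Divided by the mean reads per window, this difference shrank, from a log2 ratio of -1.17 to -0.87.

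**Figure D1:**
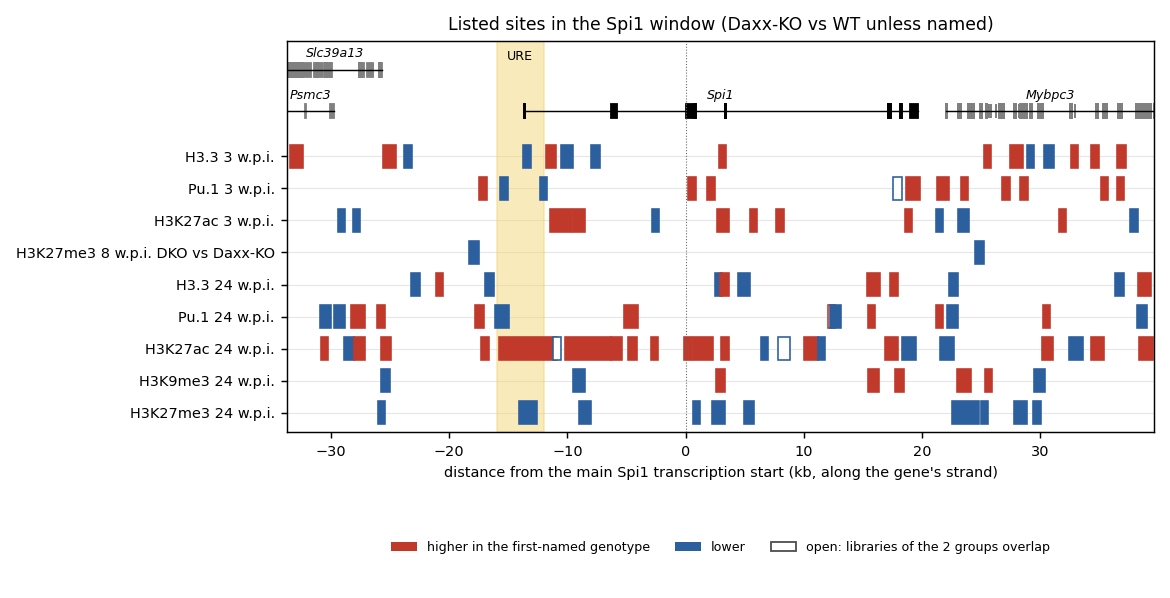
Listed sites in the window of Spi1, drawn by distance from the main transcription start in kb along the gene's strand, with 1 row per antibody and time and the exons of the genes above. Red sites were higher and blue ones lower in Daxx-KO (or in the first-named genotype), open boxes mark sites whose libraries overlapped between groups, and the shaded URE holds the 3 lost Pu.1 sites, the gained H3K27ac site and the lost H3K27me3 site.

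**Figure D2:**
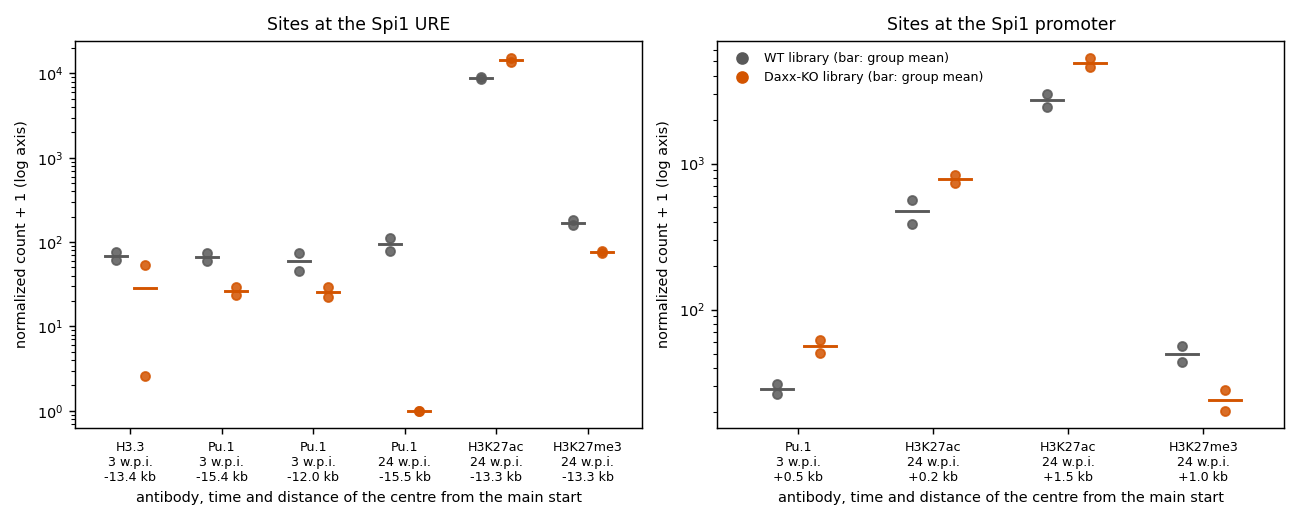
Normalized counts plus 1 (log axis) of each listed site at the Spi1 URE (left) and at the Spi1 promoter (right), with 1 point per library and a bar at the group mean, n = 2 per group. The Pu.1 points of Daxx-KO lie below those of WT at the URE and above them at the promoter.

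At the main Spi1 promoter (within 1 kb of base 91096096 of chromosome 2) Pu.1 was gained at 3 w.p.i., the opposite of the URE. The site at 91096301 to 91096950 held Pu.1 counts of 60.6 and 49.5 in Daxx-KO against 29.8 and 25.6 in WT, 1.99-fold higher with no overlap. No Pu.1 site was listed at the promoter at 24 w.p.i. and no H3K27ac site at 3 w.p.i.

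H3K27ac at 24 w.p.i. was gained on both sides of the start. Over the start itself, at 91095951 to 91096650, the counts were 839 and 729 against 564 and 387, 1.65-fold higher. Just downstream, at 91096701 to 91098450, they were 5245.9 and 4574.0 against 2969.1 and 2434.1, 1.82-fold higher. H3K27me3 at 91096751 to 91097350 went the other way, with 27.1 and 19.3 against 55.1 and 42.8, 2.11-fold lower. In each of these sites every Daxx-KO library lay on the same side of every WT library.

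Across the whole window of Spi1 the directions at 3 w.p.i. were 9 gained and 6 lost for H3.3, 10 gained and 3 lost for Pu.1, and 7 gained and 6 lost for H3K27ac. Of all sites that these tables list, 59.4%, 56.0% and 41.5% were gained, and the groups did not overlap in 98.4%, 98.1% and 97.6%. No H3K9me3 site was listed at Spi1 at that time, in a table with 78.9% gained and 99.6% without overlap. The counts at 24 w.p.i. were 5 gained and 6 lost for H3.3 (52.6% of all sites gained), 8 and 6 for Pu.1 (48.2% gained, 51.8% lost), 17 and 8 for H3K27ac (42.5% gained), 5 and 3 for H3K9me3 (48.1% gained), and 0 and 10 for H3K27me3 (58.8% lost). Libraries of the groups did not overlap in 107 of the 111 sites. At 24 w.p.i. the same held for 98.3% (H3.3), 98.2% (Pu.1), 97.3% (H3K27ac), 97.2% (H3K9me3) and 97.6% (H3K27me3) of all listed sites, and so is no mark of Spi1.

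H3K27ac sites were dense at Spi1. Per 10 kb, 96.5% of protein-coding gene windows had fewer listed H3K27ac sites at 3 w.p.i., and 91.4% had fewer at 24 w.p.i. The strongest gained sites lay over the URE, in the intron behind the distal first exons and at the promoter. At 91084651 to 91086450, about 10.5 kb upstream of the main start, the counts at 3 w.p.i. were 386 and 325 in Daxx-KO against 153 and 159 in WT, 2.28-fold higher. The next site, 91086551 to 91087550, held 146 and 184 against 87 and 86, 1.91-fold higher. The same stretch was gained at 24 w.p.i.: the site at 91085851 to 91089750 held 5650.6 and 5718.6 against 3157.9 and 3461.7, 1.72-fold higher, and ranked 234 of its table. The gain of H3K27ac upstream of the main promoter was therefore listed in other mice at both times. Of all overlapping H3K27ac pairs of 3 and 24 w.p.i., 59.8% kept their direction.

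**Figure D3:**
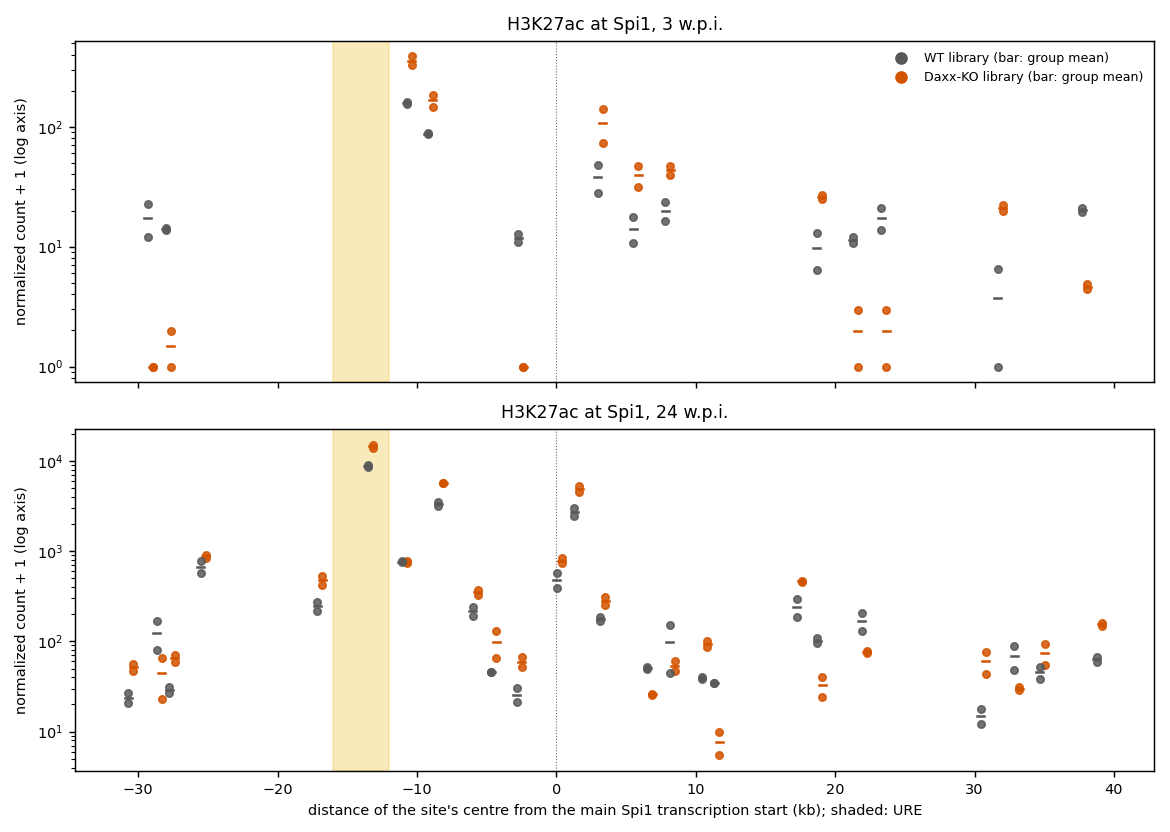
H3K27ac at every listed site of the Spi1 window at 3 w.p.i. (top) and 24 w.p.i. (bottom), as normalized counts plus 1 on a log axis against the distance of the site's centre from the main start, with 1 point per library, bars at the group means and n = 2 per group. The shaded URE holds no listed site at 3 w.p.i., and its 24 w.p.i. site, with Daxx-KO counts of 15111.3 and 13801.0, is the highest in the window.

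Another 24 w.p.i. H3K27ac site, at 91084851 to 91085550, lay inside the gained 3 w.p.i. site at 91084651. It also overlapped the gained URE site of 24 w.p.i. Its ratio of means was 0.992, with normalized counts of 773 and 745 against 756 and 774, and its groups overlapped. Divided by the mean reads per window it was 1.47-fold higher in Daxx-KO without overlap. A site in the first intron 2.5 kb before the main start turned round between the times. It held no H3K27ac read in Daxx-KO and counts of 11.8 and 9.93 in WT at 3 w.p.i., but 51 and 65.9 against 20.1 and 29.3 at 24 w.p.i.

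Over the last exon of Spi1, near 18.9 kb, H3K27ac was also gained at 3 w.p.i., 26.2 and 23.8 against 5.37 and 12.1, and lost at 24 w.p.i., 39.7 and 23.4 against 107 and 94.1. Lost H3K27ac in the outer window was weak at 3 w.p.i.: the strongest such site by its WT mean, at 91133651 in Mybpc3, held 3.88 and 3.40 against 18.3 and 19.9. In Slc39a13 the site at 91067201 was lower in Daxx-KO at 24 w.p.i., 64.4 and 22 against 78.2 and 168, and a site that touches it was higher, 69.7 and 58.5 against 25.7 and 30.1. The sites adjoin without a gap.

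Pu.1 at the 3′ end of Spi1 was gained at 3 w.p.i., with 119 and 173 against 60.6 and 70.3 at 91114701 to 91115950, 2.23-fold higher. The site just before it, 91113651 to 91114400, had a lower mean in Daxx-KO but overlapping groups, 49.6 and 73.0 against 56.9 and 153, and its direction rested on WT replicate 2 (log2 ratio -0.77, and 0.10 without it). At 17.1 kb upstream of the start, just outside the URE, Pu.1 counts were 41.8 and 102 against 15.7 and 0 at 3 w.p.i., and 68.2 and 35.5 against 0 and 12.6 at 24 w.p.i. in the overlapping site. The flank next to the URE thus gained Pu.1 at both times while the distal end of the URE lost it.

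Within the introns, the Pu.1 site at 91090901 to 91092050 held 61.4 and 85.7 against 12.9 and 13.7 at 24 w.p.i., 5.52-fold higher. A second intronic site, at 91108151 to 91108750, had counts of 240 and 0 in Daxx-KO against 63.3 and 47.4 in WT. Its higher mean rested on Daxx-KO replicate 1 alone (log2 ratio 1.10, and -5.82 without it), and the site that overlaps it, from 91108301, was lost with 1.36 and 0 against 63.3 and 106. Overlapping neighbours of opposite direction occurred in 8 pairs of member sites, all at 24 w.p.i. Over all listed sites of that time, 30632 of 30638 overlapping neighbours were of opposite direction, so this is no trait of Spi1.

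H3.3 at Spi1 was uneven. The gained site with the highest mean at 3 w.p.i. lay at 91062601 in the neighbours Psmc3 and Slc39a13, with 114 and 129 against 79.2 and 10.5, a log2 ratio of 1.42 that was 3.42 without WT replicate 1 and 0.61 without WT replicate 2. The strongest lost one lay in the first intron at 91088101, with 49.8 and 57.5 against 70.8 and 178, its groups overlapped when divided by the mean reads per window, and its log2 ratio of -1.20 was -0.40 without WT replicate 2. Over the second exon of the main transcript, at 3.2 kb, H3.3 was 58.4 and 57.5 against 33.7 and 5.24. The highest gained site of 24 w.p.i. lay in Mybpc3, the gene of a cardiac myosin-binding protein, at 91134351, with 153 and 149 against 15.7 and 45.1, 4.98-fold higher (log2 ratio 2.28, and 3.19 without WT replicate 2). The lost site with the highest WT mean lay at the start of Mybpc3, at 91118401, with 11 and 0 against 60.9 and 66.8, 11.6-fold lower, with a log2 ratio of -3.31 that was -6.02 without Daxx-KO replicate 1 and -2.43 without Daxx-KO replicate 2.

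H3K27me3 at 24 w.p.i. was lower in Daxx-KO at all 10 listed Spi1 sites, and in none did the groups overlap. Beside 58.8% of all listed sites, 83.7% of protein-coding gene windows held a lost H3K27me3 site and 52.3% a gained one, and over all genes with a site the median share of gained sites was 20.0%. The lost site with the highest WT mean was 91118601 to 91120950 in Mybpc3, with 35.1 and 52.4 against 175 and 180, 4.05-fold lower. Within Spi1, at 91087051, the counts were 31.9 and 19.3 against 137 and 60.0, and at 91101051 they were 11.2 and 3.68 against 45.8 and 42.8.

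H3K9me3 was listed at Spi1 only at 24 w.p.i. Next to the second exon of the main transcript, at 91098701 to 91099400, it was 51 and 50.0 in Daxx-KO and 0 in both WT libraries, at least 13.5-fold higher against the floor of 3 reads per library. The highest gained site lay in Mybpc3 at 91119051, with 38.9 and 122 against 9.33 and 8.43, 9.06-fold higher (log2 ratio 3.04, and 2.01 without Daxx-KO replicate 2 or 3.64 without Daxx-KO replicate 1). The highest lost one lay in Slc39a13 at 91070301, with 0 and 6.25 against 112 and 20.6, and its log2 ratio of -4.03 ran from -6.07 without Daxx-KO replicate 2 to -2.39 without WT replicate 1, with -3.21 and -4.77 without the other libraries. Between the distal first exons and the main start, at 91086601, H3K9me3 was 2.55 and 4.17 against 49.7 and 80.6, 19.4-fold lower, in the intron that gained H3K27ac.

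In the window of Spib (minus strand, chr7 44505993 to 44552071) H3.3 and Pu.1 were gained almost throughout at 3 w.p.i., with 14 gained and 2 lost H3.3 sites and 14 gained and 0 lost Pu.1 sites. In these tables the gained sites were 59.4% and 56.0% of all, and the median gene with a site had 75.0% and 70.0% of its sites gained. Spib held 3.47 H3.3 sites per 10 kb, against a median of 0.77 over gene windows, and 99.3% of windows had fewer. For Pu.1 96.4% of windows had fewer. The WT libraries of these tables differ in depth, and WT replicate 2 was below WT replicate 1 in 25 of the 28 gained sites.

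The promoter of Spib gained both proteins. H3.3 at 44532001 to 44533000 was 144 and 164 in Daxx-KO against 96.8 and 26.2 in WT, 2.51-fold higher. Pu.1 at 44532351 to 44533350, upstream of the start, was 151 and 193 against 74.2 and 32, 3.24-fold higher. Pu.1 at 44530851 to 44531850, over the first exons, was 59.1 and 65.7 against 44.9 and 0, 2.78-fold higher. All Daxx-KO libraries lay above all WT ones. The sizes rested on the WT libraries: the log2 ratio of the H3.3 site was 1.31, 2.51 without WT replicate 1 and 0.67 without WT replicate 2, that of the upstream Pu.1 site was 1.68 and 2.39 without WT replicate 1, and that of the Pu.1 site over the first exons was 1.43, 5.99 without WT replicate 1 and 0.46 without WT replicate 2.

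The Pu.1 site with the highest mean in the window, 44537101 to 44539150, lay in Pold1, the gene upstream of Spib on the same strand, which encodes the catalytic subunit of DNA polymerase delta. Its counts were 333 and 260 against 165 and 70.3, 2.53-fold higher (log2 ratio 1.33, and 2.06 without WT replicate 1). The highest H3.3 gain was in Pold1 too, at 44533151, with 148 and 220 against 122 and 44.5 (log2 ratio 1.14, and 2.0 without WT replicate 1). A loss of H3.3 lay among these gains at 44534751, 31.6 and 39.8 against 48.4 and 110. Its groups overlapped when divided by the mean reads per window, and its log2 ratio of -1.13 was -0.43 without WT replicate 2. Because Pold1, Mybpc2 and Nr1h2 share the window, only the sites within the Spib body can be placed in Spib itself.

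H3K27ac went down over the Spib promoter. At 3 w.p.i. the 3 listed H3K27ac sites of the window were all lost and weak. The promoter site at 44532251 held 4.84 and 0 against 9.67 and 26.5, and the strongest, at 44534701, held 9.69 and 1.70 against 31.2 and 25.4. Their log2 ratios of -2.48 and -2.13 were -4.25 and -3.44 without Daxx-KO replicate 1 and -1.71 and -1.45 without Daxx-KO replicate 2, and the first was -1.64 without WT replicate 2. The promoter losses at 24 w.p.i. were larger in counts: 25.5 and 27.8 against 105 and 106 at 44531151 to 44532000, 3.96-fold lower, and 45.7 and 32.2 against 130 and 100 at 44532201 to 44533150, 2.95-fold lower. Divided by the mean reads per window, the log2 ratios of these 24 w.p.i. sites were -1.4 and -0.97, still lower in Daxx-KO.

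In the body of Spib, further downstream, H3K27ac was mixed at 24 w.p.i., with gained sites and a lost one at 44526551. The site at 44527401 held 139 and 284 against 98.3 and 77.5, 2.40-fold higher, and the site at 44528651 held 245 and 212 against 166 and 75.2, 1.89-fold higher. The strongest gained site lay over the start of Pold1 at 44548101 to 44549400, with 1249.1 and 1351.0 against 897 and 724, 1.6-fold higher. The strongest lost one was 44539051, also in Pold1, with 65.9 and 70.3 against 172 and 128. In all, 8 H3K27ac sites were gained and 8 lost in the window at 24 w.p.i.

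H3K27me3 at Spib at 24 w.p.i. was lost on either side of the start, while the window as a whole held 6 gained and 7 lost sites. The sites at 44530201 (26.3 and 46.9 against 91.5 and 81.4, 2.36-fold lower) and 44533051 (128 and 128 against 303 and 286, 2.30-fold lower) had no overlap between groups. Between them, over the start at 44532051, the counts were 23.9 and 33.1 against 116 and 18.6, so the groups overlapped and the lower mean of Daxx-KO rested on WT replicate 1 (log2 ratio -1.21, and 0.59 without it). Over Mybpc2, downstream of Spib, the highest gained site was 44514601, with 325 and 325 against 289 and 166. The highest lost one, 44547301 in Pold1, held 213 and 155 against 409 and 351. Per 10 kb, 96.6% of gene windows had fewer H3K27me3 sites.

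In the same Daxx-KO mice at 24 w.p.i., H3K27ac was thus lower over the Spib promoter and H3K27me3 lower on either side of the start. Over the start itself the H3K27me3 groups overlapped. H3.3 was higher at the upstream edge of the promoter, within Pold1, and H3K9me3 was higher over the start. H3.3 at 44533051 was 77.3 and 45.3 against 18.4 and 5.64, 5.09-fold higher, and H3K9me3 at 44532051 was 29.3 and 84.4 against 10.9 and 0, 10.5-fold higher. The H3.3 log2 ratio of 2.26 was 3.23 without WT replicate 1, and the H3K9me3 log2 ratio of 3.17 was 5.85 without WT replicate 1, 2.28 without WT replicate 2 and 2.24 without Daxx-KO replicate 2. In the whole window 4 H3.3 sites were gained and 2 lost, and 5 H3K9me3 sites were gained and 1 lost. The extreme H3.3 sites lay in Mybpc2, with 77.3 and 169 against 1.84 and 25.4 at 44508601 and 0 and 6.79 against 93.2 and 35.7 at 44506951. The log2 ratio of the first, 3.08, was 5.45 without WT replicate 2, 2.23 without WT replicate 1 and 2.42 without Daxx-KO replicate 2, and that of the second, -3.90, was -6.03 without Daxx-KO replicate 2, -3.07 without Daxx-KO replicate 1 and -3.06 without WT replicate 1. Those of H3K9me3 were 44506201 in Mybpc2, with 77.8 and 96.9 against 45.1 and 11.2, and 44549751 in Nr1h2, with 1.91 and 25.0 against 109 and 34.7. Their log2 ratios, 1.6 and -2.33, were 2.85 and -1.30 without WT replicate 1, and 0.94 and -2.92 without WT replicate 2, and the second was -4.64 without Daxx-KO replicate 2 and -1.48 without Daxx-KO replicate 1.

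Pu.1 at Spib was mixed at 24 w.p.i., with 5 gained and 5 lost sites. Just upstream of the promoter, at 44533301 to 44534150, the counts were 30.0 and 4.18 against 176 and 47.4, 6.52-fold lower, where Pu.1 had been higher in Daxx-KO at 3 w.p.i. The highest gained site was 44517751 in Mybpc2, with 131 and 190 against 54.7 and 51.6. The lost site with the highest WT mean was 44548201 in Pold1, with 8.18 and 27.2 against 77.7 and 175, a log2 ratio of -2.77 that was -3.79 without Daxx-KO replicate 2, -2.18 without Daxx-KO replicate 1 and -2.08 without WT replicate 2.

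**Figure D4:**
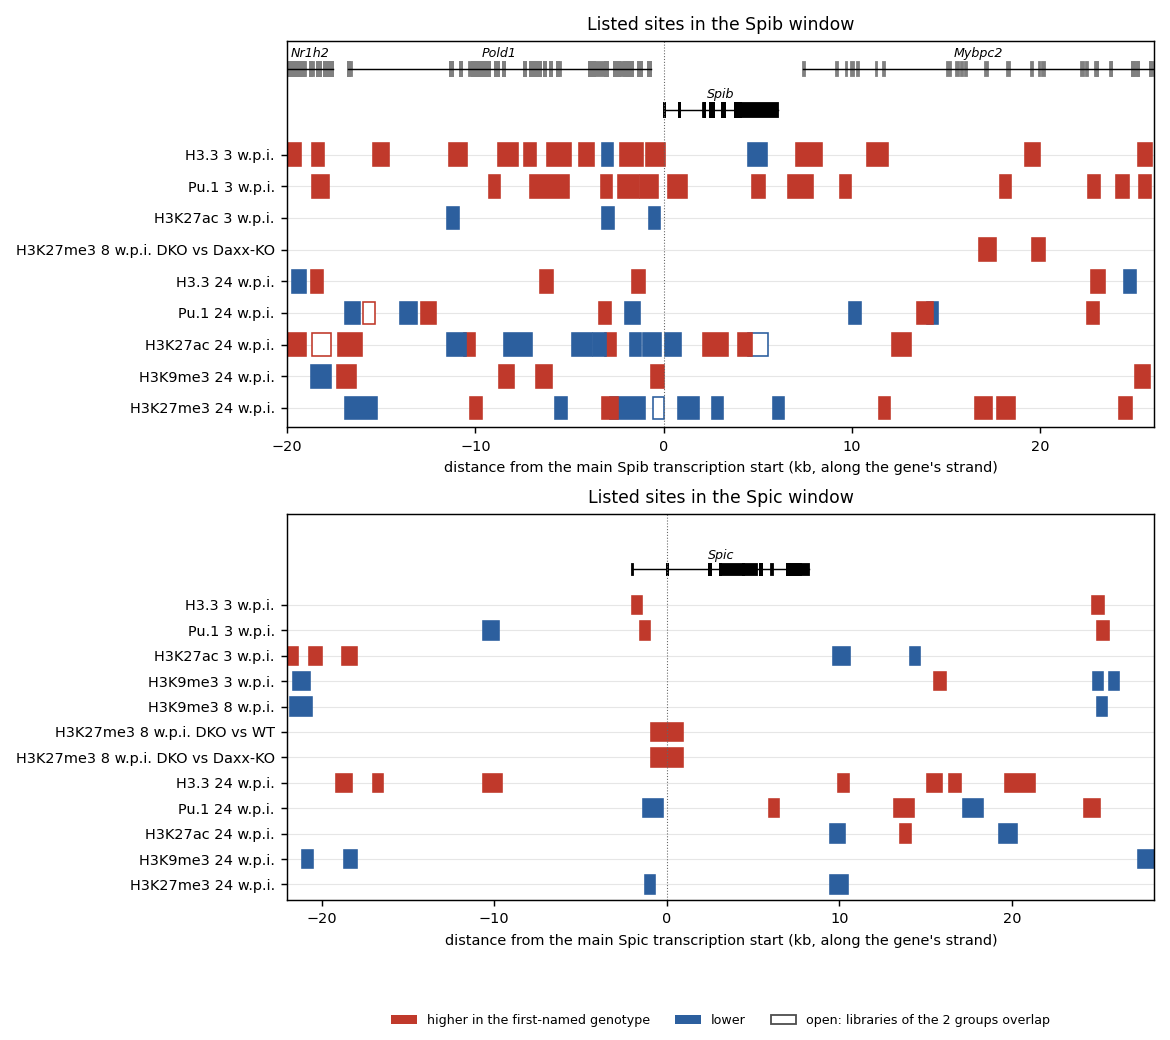
Listed sites in the windows of Spib (top) and Spic (bottom), drawn by distance from the main transcription start in kb along each gene's strand, with 1 row per antibody, time and comparison and the exons above. Red is higher and blue lower in Daxx-KO or in the first-named genotype, and open boxes mark overlapping groups. The Spib window holds 14 gained Pu.1 sites and no lost one at 3 w.p.i., and the windows hold 86 and 38 sites in all.

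Spic (minus strand, window chr10 88654772 to 88705015, with no other protein-coding gene) had the fewest sites, 14 at 3 w.p.i., 4 at 8 w.p.i. and 20 at 24 w.p.i. Promoter Pu.1 changed sides between the times. It was gained at 88684001 to 88684600 at 3 w.p.i., with 65.4 and 81.1 in Daxx-KO against 36.6 and 51.1 in WT, 1.67-fold higher. It was lost at 88683251 to 88684400 at 24 w.p.i., with 6.13 and 20.9 against 48.9 and 77.9, 4.69-fold lower, and the log2 ratio of -2.15 was -3.18 without Daxx-KO replicate 2 and -1.56 without Daxx-KO replicate 1. No H3K27ac site was listed at the promoter or in the body of Spic at either time.

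H3.3 was gained at both Spic sites of 3 w.p.i. and at all 7 of 24 w.p.i., beside 59.4% and 52.6% of all listed sites, and 85.2% and 95.9% of gene windows held a gained H3.3 site at these times. The 3 w.p.i. site in the upstream part of the gene, 88684451 to 88685050, held 92.4 and 86.2 against 58.9 and 13.1, 2.48-fold higher. Its log2 ratio was 1.29, 2.68 without WT replicate 1 and 0.59 without WT replicate 2. The strongest of 24 w.p.i., at 88661701 to 88663450 some 20.4 kb downstream of the start, held 172 and 186 against 11.1 and 27.3, 9.34-fold higher (log2 ratio 3.16, and 3.90 without WT replicate 2). The other 6 were 1.89-fold to 32.6-fold higher, the last from counts of 35.3 and 56.6 against 0 and 2.82.

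H3K9me3 at Spic was lost at the edges of the window at 3, 8 and 24 w.p.i., each time in Daxx-KO against WT. Near 21 kb upstream the counts were 0 and 6.67 against 28.9 and 29 at 3 w.p.i. (88703701 to 88704700), 0, 1.84 and 8.02 against 25.3, 17.7 and 30.0 at 8 w.p.i. (88703601 to 88704850), and 5.10 and 9.38 against 37.3 and 38.4 at 24 w.p.i. (88703501 to 88704150). The losses were 8.68-fold, 7.40-fold and 5.23-fold, and at none of the times did the groups overlap. These 3 sites overlap each other, so 1 region was listed as lost at every time.

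Near 25 kb downstream, H3K9me3 was 23.3 and 16.7 against 49.0 and 46.4 at 88656801 and 11.6 and 5.00 against 25.4 and 28.4 at 88657751 at 3 w.p.i. The 8 w.p.i. site at 88657501 held 12.7, 27.6 and 13.4 against 44.2, 34.6 and 40, 2.22-fold lower, and its groups overlapped when divided by the mean reads per window. The highest lost site at 24 w.p.i. lay at 88654701, with 44.6 and 65.7 against 196 and 76.8 (log2 ratio -1.29, and -0.47 without WT replicate 1). H3.3 and Pu.1 were gained at the same downstream place at 3 w.p.i., with 48.2 and 40.5 against 11.9 and 20.9 for H3.3 and 43.3 and 43.8 against 2.09 and 6.39 for Pu.1.

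In all, 3 of the 4 H3K9me3 sites of Spic at 3 w.p.i. were lost, where 21.1% of all listed sites were lost. Both sites of 8 w.p.i. were lost, beside 34.8% of all (65.2% gained, 89.1% without overlap), and all 3 of 24 w.p.i., beside 51.9%. A loss was listed in 17.9%, 20.2% and 70.9% of gene windows. The single gained site, at 88666851 at 3 w.p.i., was weak, with 9.30 and 10.0 against 0 in both WT libraries, at least 4.42-fold higher against the floor.

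Near the H3K9me3 loss upstream of Spic, H3K27ac was gained at 3 w.p.i., in libraries of the same mice. At 88700951, outside the lost H3K9me3 site of that time, the H3K27ac counts were 11.6 and 32.3 against 2.15 and 2.21, 10.1-fold higher (log2 ratio 2.85, and 1.99 without Daxx-KO replicate 2). At 88703001 they were 5.81 and 22.1 against 0 and 2.21, and at 88704401 they were 6.78 and 22.1 against 0 and 1.10. Only the sites at 88703001 and 88704401 overlap the H3K9me3 loss. These are few reads, and Daxx-KO replicate 2 was the higher library in each. No H3K27ac site was listed there at 24 w.p.i.

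Among the remaining Spic sites, the strongest lost H3K27ac site of 3 w.p.i., at 88672401, held 3.88 and 1.70 against 15.0 and 24.3, and H3K27ac was lower at the overlapping site of 24 w.p.i. too, 13.5 and 17.6 against 62.5 and 41.1. The highest lost H3K27ac site of 24 w.p.i. was 88662751, 8.99 and 27.8 against 62.5 and 68.0 (log2 ratio -1.77, and -2.73 without Daxx-KO replicate 2), and the gained one was 88668901, 36 and 65.9 against 21.2 and 22.1. Pu.1 at 88692751 was lost at 3 w.p.i., 29.1 and 34.9 against 83.6 and 63.9. At 24 w.p.i. Pu.1 was gained at 88657951, 41.6 and 106 against 14.4 and 15.8 (log2 ratio 2.21, and 1.4 without Daxx-KO replicate 2), and lost at 88664701, 0 and 17.8 against 57.6 and 114, a log2 ratio of -3.13 that was -6.44 without Daxx-KO replicate 2 and -2.21 without Daxx-KO replicate 1. H3K27me3 at the promoter, at 88683701, was lower at 24 w.p.i., 37.5 and 35 against 54.1 and 107, although its groups overlapped when divided by the mean reads per window.

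Deletion of Pu.1 together with Daxx was read out at 8 w.p.i. by H3K9me3 and H3K27me3. The H3K9me3 comparisons of DKO listed no site in any of the 3 windows, in tables of 49314 sites against WT (81.4% gained, 65.7% without overlap) and 42945 against Daxx-KO (73.4% gained, 69.8% without overlap). Most genes had none either, as 21.6% of gene windows held a gained and 11.5% a lost site against WT, and 19.8% and 12.6% against Daxx-KO. For H3K27me3, 1 member site was listed against WT and 5 against Daxx-KO. Of all gene windows, 46.8% held a gained and 26.8% a lost H3K27me3 site against WT, and 45.2% and 37.4% against Daxx-KO. Both comparisons use the same DKO libraries, so agreement between them is no independent repeat.

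H3K27me3 was gained over the Spic promoter, chr10 88682101 to 88683950. Against WT the counts were 24.9, 83.0 and 37 in DKO and 14.0, 2.72 and 2.24 in WT, 7.65-fold higher, with exact permutation p = 0.1 (n = 3 per group), the smallest the design allows. Against Daxx-KO, with constants of that comparison, they were 27.6, 95.5 and 42.2 in DKO and 0, 2.17 and 10.5 in Daxx-KO, 13-fold higher with the same p. Every DKO library was above every library of the other genotypes, and DKO replicate 2 was the highest in both. The log2 ratio against WT was 2.75, 3.82 without WT replicate 1 and 2.13 without DKO replicate 2, and against Daxx-KO it was 3.42, 4.75 without Daxx-KO replicate 3 and 2.78 without DKO replicate 2. Of all listed sites 56.1% were gained against WT and 65.3% against Daxx-KO, and the groups did not overlap in 89.6% and 84.3%.

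At Spib, DKO was higher than Daxx-KO in H3K27me3 over Mybpc2, with 59.0, 41.2 and 40.9 against 21.4, 23.9 and 27 at 44514401 and with 20.1, 26.1 and 21.1 against 3.29, 13 and 8.55 at 44511801. Divided by the mean reads per window, the groups of the first site overlapped. At Spi1, DKO was lower, with 6.28, 4.02 and 0 against 46.1, 9.78 and 18.4 at 91077801, some 17.9 kb upstream of the main start, 7.22-fold lower (log2 ratio -2.54, and -1.77 without Daxx-KO replicate 1), and with 0 in all 3 libraries against 16.5, 13 and 7.90 at 91120601 in Mybpc3, at least 3.56-fold lower against the floor. Neither Spi1 site touches the URE, the promoter or the floxed gene body.

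**Figure D5:**
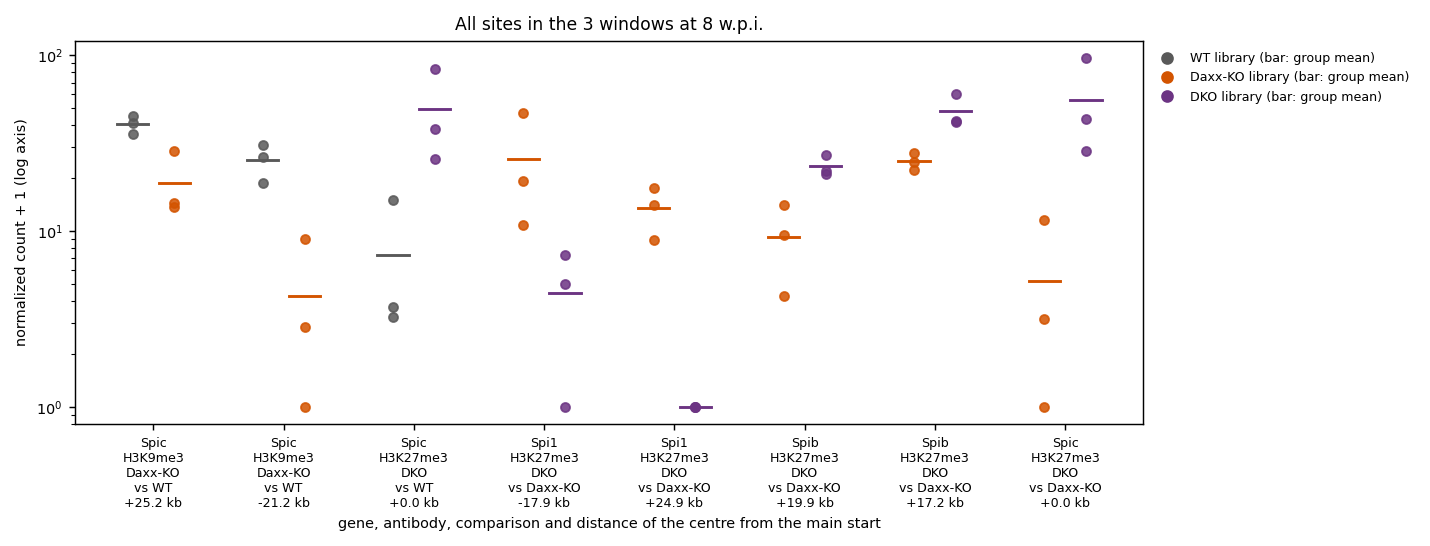
All 8 sites of the windows of Spi1, Spib and Spic listed at 8 w.p.i., as normalized counts plus 1 on a log axis, with 1 point per library (n = 3 per group) and bars at the group means. The H3K27me3 points of DKO over the Spic promoter, between 24.9 and 95.5, lie above all WT and Daxx-KO points of that site.

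Sites of 3 and 24 w.p.i. come from other mice, so a site listed with the same antibody at both times was called in separate animals. There were 38 overlapping pairs of member sites, of which 23 kept their direction and 15 did not. By antibody, 5 of 8 pairs agreed in direction for H3.3, where 51.2% of all overlapping pairs did, 6 of 11 for Pu.1 (48.1%), 11 of 18 for H3K27ac (59.8%) and 1 of 1 for H3K9me3 (56.8%). The distal URE loss of Pu.1, the gain of H3K27ac in the first intron of Spi1 and the H3K9me3 loss upstream of Spic are among the pairs that kept their direction. With so few pairs these counts mark nothing particular to the 3 genes. Over all sites, H3.3 and Pu.1 pairs kept and changed direction about equally often. A kept direction in a single pair is thus weak evidence of a repeated difference.

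The other ETS genes were counted in the same way. Their 23 windows held 164 gained and 87 lost H3.3 sites and 145 gained and 93 lost Pu.1 sites at 3 w.p.i. The median share of gained sites per gene was 70.0% for H3.3 and 66.7% for Pu.1, beside 75.0% and 70.0% over all genes with a site. Spib, with 14 of 16 H3.3 and 14 of 14 Pu.1 sites gained, lay above these medians, and Spi1 lay below the H3.3 median with 9 of 15 and above the Pu.1 median with 10 of 13. In 21 autosomal ETS windows at 24 w.p.i., 264 H3K27ac sites were gained and 229 lost (median 53.1%, beside 44.4% over all genes), and 39 H3K27me3 sites were gained and 154 lost (median 18.2%, beside 20.0%). H3K27me3 was thus mostly lost at ETS genes, as it was at most genes and at Spi1. The remaining 24 w.p.i. medians of the ETS genes were 55.6% for H3.3, 50.0% for Pu.1 and 66.7% for H3K9me3, beside 52.9%, 50.0% and 63.6%. For H3K27ac at 3 w.p.i. the ETS genes had 160 gained and 137 lost sites (median 40%, beside 33.3% over all genes).

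Genes of factors that regulate Spi1 or act with Pu.1, such as Runx1, Cebpa, Irf8 and Gata2, held 99 gained and 27 lost H3.3 sites and 87 gained and 28 lost Pu.1 sites in 14 windows at 3 w.p.i. (medians 81.7% and 81.4%, beside 75.0% and 70.0% over all genes). For H3K27ac they held 54 gained and 77 lost sites at 3 w.p.i. (median 38.8%, beside 33.3%) and, in 13 windows, 122 gained and 157 lost at 24 w.p.i. (median 50.0%, beside 44.4%). Their H3K27me3 sites at 24 w.p.i. were 48 gained and 68 lost, with a median of 0.0% gained, beside 20.0%. H3K9me3 sites were few in both lists at 3 w.p.i., with 4 gained and 5 lost at ETS genes and 3 and 3 at the partner genes (medians 50.0% and 70.0%, beside 100%). The H3K27me3 comparison of DKO with WT held 51 gained and 6 lost sites at ETS genes and 36 gained and 4 lost at the partner genes, and the median share of gained sites was 100% in both lists and over all genes.

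The makeup of the HSPC fraction was looked at through H3K27ac at marker genes, since Spi1 is itself strongest in myeloid cells. Sites were counted per gene window, so a site in the windows of neighbouring marker genes counted for each. The summed counts took each site once. At 24 w.p.i. the neutrophil genes S100a8, S100a9, Ltf, Camp, Ngp and Mmp9 held 80 gained and 15 lost sites, more gained than lost in 6 of 6 genes, with summed counts of 58400.5 and 55251.0 in Daxx-KO against 27370.9 and 31018.4 in WT. The HSPC genes held 66 gained and 44 lost sites, with sums of 15964.8 and 15970.3 against 10385.1 and 9273.6. Of all H3K27ac sites listed at that time, 42.5% were gained. The neutrophil and HSPC genes moved in the same libraries as the 1.64-fold gain of H3K27ac at the URE and the 1.82-fold gain behind the promoter of Spi1. Their part in those gains was not tested.

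The neutrophil genes held 14 gained and 15 lost sites at 3 w.p.i., with sums of 628 and 710 against 529 and 520. The HSPC genes held 57 gained and 19 lost sites then, with sums of 3431.2 and 4673.2 against 1950.4 and 1840.2. Erythroid genes held 1 gained and 18 lost sites at 3 w.p.i. and 13 and 23 at 24 w.p.i., and T and NK cell genes 7 and 26, then 19 and 30. B cell genes, in which Spib acts, held 27 gained and 20 lost sites, then 39 and 39. Plasmacytoid dendritic cell genes held 29 and 25, then 33 and 54, with no site at Bst2 at 3 w.p.i. Monocyte and macrophage genes held 20 and 21, then 33 and 41. Beside these counts, 41.5% of all listed H3K27ac sites were gained at 3 w.p.i. and 42.5% at 24 w.p.i. Any part of cell makeup in the differences at Spib and Spic was not tested either.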

How the data were processed

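CUT&Tag libraries of HSPCs were aligned and compared by the authors. The submitters' processing notes name CASAVA 1.8.4, cutadapt 1.13, STAR 2.5.3, bedtools and mm10, without a role or order. Per the file headers, the authors counted reads with diffReps 1.55.6 in 600-bp windows moved by 50 bp (fragment size 100 bp), compared groups with a negative binomial test, merged windows with p under 0.0001 into sites, and left out X and Y at 24 w.p.i. The deposited signal of a site is its reads divided by a constant of the library, given per library and as a group average. Multiplied by the constant, 100% of values between 0 and 40 reads came out whole within 0.1 read, although the tables pack libraries into 1 field, so no count model was run. The tables also hold the authors' fold changes, p-values, adjusted p-values and calls of direction, which were not used.

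Of 15 tables, 14 were used. The H3K27me3 table of Daxx-KO against WT at 8 w.p.i. was left out because its controls are H3K9me3 libraries. The 8 DKO libraries of 24 w.p.i. of the 62 in the series are in no table and were not analysed here. Groups came from the labels.

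Directions came from group means of the library values, with a two-sided exact permutation test per site. No test across sites was run, because the sites had been selected by the same contrast. The 3 windows have 20 kb on each side. Sites described in full were those at the URE and within 1 kb of a promoter and, in each table and window, the site of each direction with the highest mean. Other sites named were chosen after their values were seen. The members and gene lists were chosen with earlier results of these data known. The tables count reads by position without strand, so overlapping and neighbouring genes share sites. Folds against a group at 0 used 3 reads per library. Motifs and promoter stretches were read from mm10, and 2 of the 3 genes (Spib and Spic) were in the RefSeq promoter table. Python 3.11.15 with numpy 2.4.6, pandas 2.3.3, scipy 1.17.1 and matplotlib 3.10.9 was used, and 7 of 7 checks on simulated data passed. Alternatives were the window, filters on fold and mean, merging of sites, the overlap rule, each library left out, and division by mean reads per window. This division, and leaving out a library at single sites, were added after seeing the data.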

Additional observations from a re-analysis of the deposited data

Results flagged for a closer look

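Each of the 13 pairs given here joins a 3 w.p.i. site to a 24 w.p.i. site of the same antibody that overlaps it, with every library of Daxx-KO above WT at one time and below it at the other. The difference between the times was not tested, the mice differ, and the overlaps were 50 to 750 bp. Values are log2 ratios of Daxx-KO to WT (means plus 1), with the change from 3 to 24 w.p.i. at the end.

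Spi1 had 6 such pairs. H3.3 at 3.2 kb went from 1.53 to -5.44, a change of -6.97, although the 3 w.p.i. site also overlaps a gained site of 24 w.p.i. over the second exon of the main transcript. Both Daxx-KO libraries were at 0 in the lost site, at least 12.7-fold lower against 3 reads per library, so these log2 values depend on the added 1 and are no measured size. H3.3 at 36.9 kb, in Mybpc3, went from 1.62 to -2.77, a change of -4.39. Pu.1 at 21.8 kb went from 0.53 to -3.47, a change of -4.00, again beside an overlapping site that kept its direction. H3K27ac at -27.8 kb, in Slc39a13, went from -3.24 to 1.17, a change of 4.41, with another such neighbour and Daxx-KO counts of 0.97 and 0 at 3 w.p.i. H3K27ac at -2.5 kb, in the first intron, went from -3.57 to 1.21, a change of 4.78, with no overlapping site that kept its direction. Both Daxx-KO libraries were at 0 there at 3 w.p.i., at least 3.99-fold lower, so the first value depends on the added 1. H3K27ac at 18.9 kb, over the last exon, went from 1.41 to -1.64, a change of -3.05.

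Spib had 5 pairs. H3.3 at -20.0 kb, in Nr1h2, went from 1.73 to -1.85, a change of -3.58. Pu.1 at 9.7 kb, in Mybpc2, went from 1.88 to -2.66, a change of -4.54. The 3 w.p.i. Pu.1 gains at -0.8 kb (1.68) and -1.9 kb (1.10) both overlap the same lost site of 24 w.p.i. (-2.64), with changes of -4.32 and -3.74, the first over 50 bp only. H3K27ac at -3.0 kb went from -2.13 to 0.94, a change of 3.07, beside an overlapping site that kept its direction.

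Spic had 2 pairs. Pu.1 at the promoter, at -1.3 kb, went from 0.73 to -2.15, a change of -2.88. H3K27ac at 14.4 kb went from -2.52 to 1.19, a change of 3.71, over 50 bp and from counts of 1.94 and 0 against 12.9 and 7.72 at 3 w.p.i.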

How the results depend on the processing

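The numbers of sites followed the window. With gene bodies alone there were 16 gained and 7 lost sites at 3 w.p.i., 2 and 0 at 8 w.p.i. and 23 and 22 at 24 w.p.i., and with 50 kb on each side 103 and 54 at 3 w.p.i., 11 lost at 8 w.p.i., and 134 and 132 at 24 w.p.i., in place of 62 and 26, 4 and 4, and 74 and 65. A mean of at least 20 in the higher group left 16 lost sites at 3 w.p.i. Pairs of 3 and 24 w.p.i. with the same direction numbered 23, and 14 with an overlap of at least 50% of the shorter site or 36 within 1 kb. Leaving out each library in turn gave 62 to 63 gained and 25 to 26 lost sites at 3 w.p.i., 4 to 4 of each at 8 w.p.i., and 72 to 75 gained and 64 to 67 lost at 24 w.p.i. Of 146 alternatives for counts, 132 stayed within 1.5 times. Of 350 alternatives for 68 single sites, 6 turned the direction (log2 ratios): Pu.1 at 17.9 kb of Spi1 at 3 w.p.i. without WT replicate 2 (-1.31 to 0.10 over the libraries left out), Pu.1 at 12.4 kb at 24 w.p.i. without Daxx-KO replicate 1 (-5.82 to 2.10), H3K27ac at -10.9 kb at 24 w.p.i. without Daxx-KO or WT replicate 2 (-0.04 to 0.01) or divided by mean reads per window (0.55), and H3K27me3 over the Spib start without WT replicate 1 (-1.98 to 0.59). The cause was not tested. Division by mean reads per window also moved 14 of the 68 sites, without turning them, by more than the spread of their libraries.

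The edgeR alternatives were not run, because the tables hold only sites selected by the same contrast. No paired analysis was possible because the replicate numbers mark no mouse shared between genotypes and no model was fitted in which a block could enter. A library was at 0 in 20 of 88 member sites at 3 w.p.i., 4 of 8 at 8 w.p.i. and 28 of 139 at 24 w.p.i., so folds there depend on few reads. Over all listed sites the share, by antibody and comparison, was 11.7% to 50.1% at 3 w.p.i. It was 21.7% to 42.3% at 8 w.p.i. and 1.43% to 43.6% at 24 w.p.i.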
